A study of Homo sapiens with 17 samples.

Results

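PC3M cells, a metastatic human prostate cancer line, carrying a knockout (KO) of HSF1 and given the proteasome inhibitor MG132 were compared with control PC3M cells given only the solvent DMSO. The comparison uses 4 of the 17 libraries of the series, which are HSF1 KO MG132 libraries A and B and siNT DMSO libraries 1 and 2. Every gene with a normalised count of at least 10 in at least 2 of these 4 libraries was a member, which gave 9064 of the 14085 genes listed. The control cells had been transfected with a non-targeting siRNA (siNT) for 72 h and then received DMSO for 4 h. The KO cells received 2.5 µM MG132 for 4 h, and their labels name no siRNA. Control cells with both siNT and MG132 (2 libraries) were measured in the same table and are set beside the KO values. The design text speaks of KO cell lines, but the labels do not say whether A and B are separate clones, and the deleted part of HSF1 is not given. None of the 17 libraries of the series is of KO cells under DMSO. Drug and genotype therefore both differ between the groups, and siRNA transfection may differ as well. Their parts in a difference cannot be told apart. Under MG132 too, KO and siNT cells may differ in transfection as well as in genotype. The main comparison is called HSF1 KO MG132 against siNT DMSO throughout.

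The proteasome degrades ubiquitin-tagged proteins, and its inhibition leaves unfolded and unwanted proteins in the cell. HSF1 is the transcription factor that binds heat shock elements and drives the chaperone genes of the heat shock response. Other arms of the response to such stress do not run through HSF1: phosphorylation of the translation factor eIF2α raises ATF4 and its partner CHOP, and release of NRF2 from KEAP1 drives antioxidant and haem-degrading genes.

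In HSF1 KO MG132 cells, 36 genes were higher and 51 were lower than in siNT DMSO cells (limma with Benjamini-Hochberg adjustment, adjusted p under 0.05). These are 0.397% and 0.563% of the tested genes. The genes that were higher included HMOX1, DDIT3 and GADD45B, marker genes chosen with earlier results of these data known. Several other targets of ATF4 and CHOP, and the secreted factor GDF15, were also higher. The genes that were lower included the heat shock protein genes HSPA1A, HSPA1B, HSPH1, HSPB1, HSPD1 and HSPE1, and genes of mixed function such as RAB31 and FGFR1. Each of the 87 genes had both KO libraries on the same side of both DMSO libraries, with the smallest log2 fold change at 1.26 among genes that were higher and -1.18 among genes that were lower. Such separation was common in the table: both KO libraries lay above both DMSO libraries in 25.1% of the tested genes and below them in 24.2%.

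**Figure D1:**
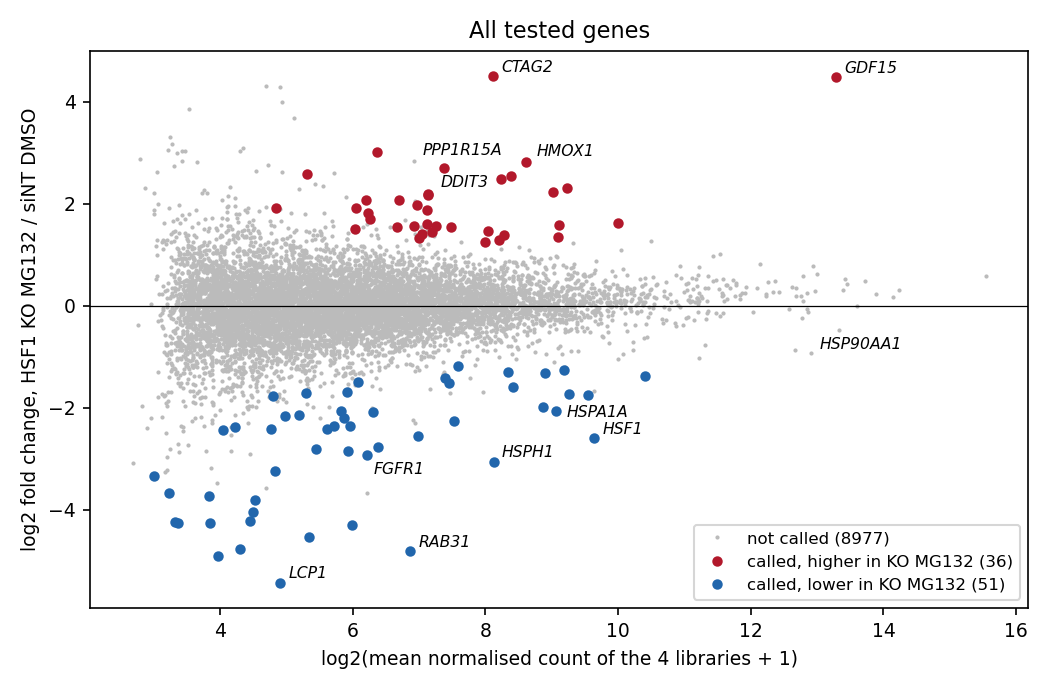
Log2 fold change of HSF1 KO MG132 over siNT DMSO (y axis) against log2 of the mean normalised count of the 4 libraries plus 1 (x axis), 1 point per tested gene. The 36 genes called higher (red) lie above 1.25 and the 51 called lower (blue) below -1.17, and GDF15 is the most abundant of the genes called higher.

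The precision behind these calls is that of 2 libraries a group. The median standard error of a log2 fold change was 0.378, and 1161 genes had an unadjusted p under 0.05 (601 higher, 560 lower). The count changed when a single library was left out: 19 genes were called without siNT DMSO library 2, 22 without library 1, 36 without KO library B, 38 without KO library A, and 140 and 139 without library 1 and 2 of siJMJD6 MG132 cells, which carry an siRNA against JMJD6 and enter only the estimate of spread. Leaving both siJMJD6 libraries out, an alternative added after seeing the data, gave 143. Leaving out a compared library also changed the set of tested genes, because the filter was applied again. It fell from 9064 genes to 8695 and 8686 without siNT DMSO library 1 and 2. Without KO library A and B it was 8791 and 8726. Of the 51 genes called lower, 19 were under the filter value in both KO libraries. These 19 were not tested when either DMSO library was left out. How far this lowered the counts was not tested. The labels do not state whether libraries came from separate cultures, so a p-value here speaks only of variation among libraries, possibly technical. Library totals after the authors' normalisation ran from 1505826 to 1724029 in the 6 libraries described here, and the correlation of log2 values across tested genes was 0.953 between KO libraries A and B and 0.941 between the DMSO libraries.

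The labelled line was checked against its markers. KRT18 (756 and 1029 in DMSO, 1401 and 1293 in KO), KRT19, VIM, CD44 and CAV1 were present in all 4 libraries. Of 11 blood and immune markers 3 are listed in the table used, and PTPRC, CD3E, LYZ and HBB are not among them. CD68, a macrophage marker also found in other cells, was at 33.3 and 35.4 in DMSO and 19.8 and 51.5 in KO (-0.10 ± 0.43, adjusted p = 0.955). CD14 was at 0 in both DMSO libraries and at 0 and 0.0123 in KO, and CD79A was under the filter. The cells thus carried keratin and mesenchymal transcripts together. In bulk RNA, fewer expressing cells and less RNA per cell cannot be told apart.

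HSF1 transcript, the target of the knockout, was at 1502 and 1223 normalised counts in DMSO, 1687 and 1884 in siNT MG132, and 285 and 175 in the KO libraries. The KO libraries were the lowest and did not overlap either control group. Against DMSO the log2 fold change was -2.59 ± 0.27 (SE, n = 2 libraries a group; limma adjusted p = 0.000463). The libraries count tags near the 3′ end of transcripts, and this level is no check of the deletion. JMJD6, a dioxygenase gene studied in the same series, was at 88.7 and 70.9 in DMSO and at 80.5 and 79.4 in the KO libraries, a log2 difference of 0.01 ± 0.32 (SE) with overlapping groups. HSF2, another heat shock factor gene, is named after its values were seen and was not called, with 192 and 179.6 in DMSO against 288 and 208 in the KO libraries.

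Promoter windows of 5 called genes are shown before the values, because they hold the recognition letters of HSF1 (3 genes that were lower) or of ATF4 with C/EBP partners (2 genes that were higher). The windows are from RefSeq (build GRCh38.p14), 60 bases long, 5′ to 3′ on the plus strand, and end before the annotated start of the gene. Capitals mark the match to a heat shock element dyad in the first 3 windows and to a C/EBP-ATF element in the last 2.
HSPA1A, chr6:31815411-31815470: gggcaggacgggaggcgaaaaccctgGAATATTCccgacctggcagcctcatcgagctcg
HSPA1B, chr6:31827607-31827666: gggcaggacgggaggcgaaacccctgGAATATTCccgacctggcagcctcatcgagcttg
HSPB1, chr7:76302465-76302524: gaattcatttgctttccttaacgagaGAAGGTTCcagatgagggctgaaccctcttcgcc
CHAC1, chr15:40953236-40953295: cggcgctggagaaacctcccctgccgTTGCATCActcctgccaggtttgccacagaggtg
ATF3, chr1:212565190-212565249: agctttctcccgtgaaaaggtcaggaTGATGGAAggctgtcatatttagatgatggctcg

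The matches begin 106, 105, 182, 209 and 191 bases upstream of the annotated starts of HSPA1A, HSPA1B, HSPB1, CHAC1 and ATF3. The dyad was searched as GAANNTTC or TTCNNGAA, each of which reads the same on both strands, and the C/EBP-ATF element as TGATGNAA with its reverse complement TTNCATCA. In windows from 250 bases before to 50 after the start, 682 of 7105 tested genes with a promoter in the table (9.60%) held the dyad and 112 (1.58%) held the C/EBP-ATF element. Among the genes called lower, 3 of the 28 with a promoter (10.7%) held the dyad, namely HSPA1A, HSPA1B and HSPB1, and 1 (3.57%), RNF182, held the other element. Among the 30 genes called higher with a promoter, the dyad was in TNFSF9 and ZFAND2A (6.67%) and the C/EBP-ATF element in ATF3 and CHAC1 (6.67%). The share with the dyad among genes called lower was near that of all tested promoters, and a match is a description of letters, not of binding.

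Several chaperone genes of the heat shock response differed widely between the 3 groups. HSPA1A, the stress-inducible HSP70 (chromosome 6, 31815543-31817942), was at 746 and 980.1 in DMSO, rose to 12973 and 7553 in siNT MG132, and was at 181 and 229 in KO MG132. The KO libraries thus lay below the untreated controls as well as below the treated ones. The log2 fold change was -2.06 ± 0.38 (SE, adjusted p = 0.0177) against DMSO and -5.60 ± 0.38 (adjusted p = 6.91e-06) against siNT MG132. HSPA1B, its near-identical neighbour, was at 211 and 275 in DMSO, 4229 and 2312 in siNT MG132, and 82.0 and 97.0 in KO MG132. Its groups were ordered in the same way, with a log2 fold change of -1.42 ± 0.30 against DMSO (adjusted p = 0.0454). Counting may have split reads between these copies, and their separate levels are uncertain. Both calls against DMSO were lost when any 1 of the 4 compared libraries was left out, with adjusted p from 0.0920 to 0.223 for HSPA1A and from 0.172 to 0.383 for HSPA1B.

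HSPH1, an HSP110 nucleotide exchange factor for HSP70, was at 358 and 635 in DMSO, 1390 and 1157 in siNT MG132, and 77.5 and 41.3 in KO MG132. The KO values were the lowest of the 6, and the log2 fold change of -3.05 ± 0.34 (adjusted p = 0.000751) was the largest fall among the 34 tested cytosolic chaperone and co-chaperone genes. HSPB1, the small heat shock protein HSP27, was at 824 and 1063 in DMSO and at 347 and 228 in KO (-1.73 ± 0.25, adjusted p = 0.00343), without overlap. Its call was lost without siNT DMSO library 2 (adjusted p = 0.0867) or KO library B (adjusted p = 0.0759). ST13, an HSP70-interacting co-chaperone, was at 259 and 274 in DMSO and 124 and 111 in KO, a log2 fold change of -1.18 ± 0.23 (adjusted p = 0.0263). Its call was lost when any 1 of the 4 compared libraries was left out (adjusted p from 0.163 to 0.293).

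The other tested genes of the cytosolic chaperone list were not called against DMSO. DNAJB1, the HSP40 partner of HSP70, was at 1580 and 1977 in DMSO, 11245 and 11140 in siNT MG132 and 1429 and 1981 in KO MG132. The KO and DMSO groups of DNAJB1 overlapped (-0.07 ± 0.25, adjusted p = 0.943), whereas the difference from siNT MG132 was -2.73 ± 0.25 (adjusted p = 7.54e-05). HSP90AA1, the inducible cytosolic HSP90, was at 10212 and 9900 in DMSO and 5819 and 4848 in KO, without overlap, but its log2 fold change of -0.92 ± 0.23 missed the threshold (adjusted p = 0.0895). It passed in fits without siJMJD6 library 1 (adjusted p = 0.0314) or library 2 (adjusted p = 0.0287), with the same fold change. BAG3, a co-chaperone of selective autophagy, was at 133 and 249 in DMSO, 1630 and 763 in siNT MG132 and 68.5 and 93.9 in KO MG132, and was not called against DMSO (-1.17 ± 0.43, adjusted p = 0.268). HSPA8, the constitutive HSP70, was at 324 and 422 in DMSO and at 408 and 337 in KO, with overlapping groups and a log2 difference of 0.01 ± 0.34 (SE).

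**Figure D2:**
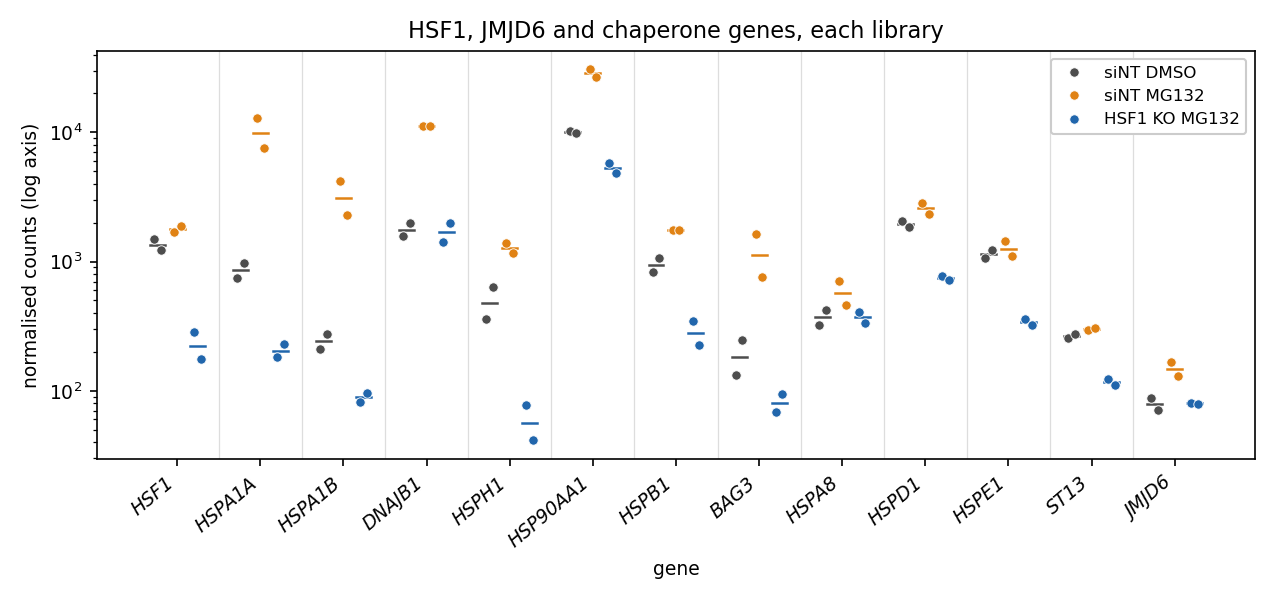
Normalised counts (log axis) of HSF1, JMJD6 and 11 chaperone genes in each library of siNT DMSO (grey), siNT MG132 (orange) and HSF1 KO MG132 (blue); points are libraries and bars their geometric means. For HSPA1A the KO libraries (181 and 229) lie below the DMSO libraries and far below siNT MG132, whereas for DNAJB1 they overlap the DMSO libraries.

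Of 34 tested cytosolic chaperone and co-chaperone genes, 5 were called lower, beside 0.563% of all tested genes, and none higher. Toward lower, 15 of the 34 had an unadjusted p under 0.05, beside 560 of all 9064 tested genes. Toward higher, 0 of the 34 had one, beside 601. With equal totals or quantile normalisation 8 of the 34 were called lower. The median log2 fold change of the 34 was -0.36, beside 0.00 for all tested genes. Against siNT MG132, 15 of the 34 were lower and none higher, in a comparison where 0.927% of all genes were lower and 0.265% higher, and the median was -0.996. In siNT MG132 against siNT DMSO, 5 were higher (HSPA1A, HSPA1B, HSP90AA1, DNAJB1 and BAG3) and none lower (median 0.47), where 0.21% and 0.0662% of all genes were higher and lower. The 3 comparisons share libraries and are therefore only set side by side.

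The mitochondrial chaperonin pair was also lower. HSPD1 (HSP60) was at 2052 and 1862 in DMSO, 2858 and 2352 in siNT MG132 and 779 and 723 in KO, and HSPE1 (HSP10), which shares its promoter region with HSPD1, was at 1058 and 1236, 1442 and 1095, and 358 and 323. In both genes the KO libraries lay under all 4 control libraries. The log2 fold changes against DMSO were -1.38 ± 0.22 (adjusted p = 0.00606) for HSPD1 and -1.75 ± 0.24 (adjusted p = 0.00276) for HSPE1. The HSPD1 call was lost without any 1 of the 4 compared libraries (adjusted p from 0.0643 to 0.145), and the HSPE1 call without siNT DMSO library 2 (0.0691) or KO library B (0.0558). These were the 2 genes called among 15 tested mitochondrial chaperones and proteases, whose median was -0.05, beside 0.563% of all tested genes called lower. Among 14 subunits of the TRiC chaperonin and prefoldin, limma called none (median -0.20), and 1 had an unadjusted p under 0.05.

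ER folding genes did not pass the test. HSPA5, the ER HSP70 BiP, was at 2138 and 1596 in DMSO and 3037 and 4323 in KO, without overlap, with a log2 fold change of 0.97 ± 0.28 (adjusted p = 0.137). DNAJB11, its co-chaperone, was at 166 and 207 in DMSO and 363 and 341 in KO (0.92 ± 0.24, adjusted p = 0.114). Of 19 tested genes of ER folding limma called none, 4 had an unadjusted p under 0.05 toward higher (HSPA5, DNAJB11, HERPUD1 and XBP1) and none toward lower, and the median was 0.26. Such a p was found toward higher in 601 and toward lower in 560 of all 9064 tested genes.

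The targets of ATF4 and CHOP held the largest group of genes that were higher. DDIT3 (chromosome 12, 57516588-57520517), which encodes CHOP itself, was at 84.0 and 97.1 in DMSO, 221 and 263 in siNT MG132 and 480 and 545 in KO MG132. The 3 groups did not overlap, and the KO libraries were the highest. The log2 fold change against DMSO was 2.49 ± 0.26 (adjusted p = 0.000463), beside 1.41 for siNT MG132 against DMSO, and the difference between KO and siNT under MG132 was 1.08 ± 0.26 (adjusted p = 0.0715), which missed the threshold. PPP1R15A (GADD34), the phosphatase subunit that reverses eIF2α phosphorylation, was at 51.5 and 35.7 in DMSO, 241 and 274 in siNT MG132 and 274 and 299 in KO. Here both MG132 groups lay close together, and the log2 fold change against DMSO was 2.71 ± 0.28 (adjusted p = 0.000463). CHAC1, a glutathione-degrading enzyme, was at 205 and 159 in DMSO, 345 and 409 in siNT MG132 and 746 and 960.0 in KO. Its KO libraries exceeded all others, by 2.22 ± 0.26 against DMSO (adjusted p = 0.00121) and by 1.17 ± 0.26 against siNT MG132 (adjusted p = 0.0499). The calls of DDIT3, PPP1R15A and CHAC1 against DMSO held in all 20 alternatives run for them.

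GDF15, a secreted stress cytokine of the TGF-beta family (chromosome 19, 18386158-18389176), was the most abundant gene called higher. It was at 475 and 1483 in DMSO, 475 and 1772 in siNT MG132, and 21674 and 16227 in KO MG132. The control groups overlapped each other, and both KO libraries stood far above all 4 control libraries. The log2 fold change was 4.48 ± 0.54 (adjusted p = 0.00121) against DMSO and 4.35 ± 0.54 (adjusted p = 0.00076) against siNT MG132, while siNT MG132 and DMSO differed by 0.13 ± 0.54. Against DMSO it was 3.66 without siNT DMSO library 1 and 5.30 without library 2, called in both. ATF3, a stress-induced transcription factor, was at 27.0 and 26.3 in DMSO, 46.4 and 57.7 in siNT MG132 and 146 and 90.7 in KO, a log2 fold change of 2.07 ± 0.33 against DMSO (adjusted p = 0.00723) that missed the threshold without siNT DMSO library 1 (0.0920), siNT DMSO library 2 (0.0913) or KO library A (0.142). SESN2, a sestrin that restrains mTORC1, is named after its values were seen and was at 347 and 269 in DMSO and 844 and 730.2 in KO (1.36 ± 0.28, adjusted p = 0.0384).

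Of 22 tested ATF4 and CHOP targets, the 6 genes above were called higher and none lower, the median log2 fold change was 0.63, and 12 had an unadjusted p under 0.05 toward higher. Among all 9064 tested genes, 0.397% were called higher and 601 had such a p toward higher. ATF4 transcript itself was not called (707 and 932 in DMSO, 1376 and 1304 in KO; 0.72 ± 0.27, adjusted p = 0.273). Among the amino acid genes of the list, ASNS, asparagine synthetase, differed from DMSO by 0.23 ± 0.30. SLC7A11, the cystine transporter, differed by -0.05 ± 0.31. The other amino acid genes of the list were not called and are not described here. Limma called none of 19 tested aminoacyl-tRNA synthetase genes, 1 of which, VARS, had an unadjusted p under 0.05 toward lower, and their median was -0.12. ATF4, ASNS and SLC7A11 are named here after their values were seen.

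HMOX1 (chromosome 22, 35381096-35394207), haem oxygenase 1, was at 88.3 and 105 in DMSO, 552 and 511 in siNT MG132 and 656 and 715 in KO MG132. All MG132 libraries lay above both DMSO libraries, with the KO libraries above siNT MG132. Against DMSO the log2 fold change was 2.82 ± 0.39 in KO (adjusted p = 0.00276) and 2.45 ± 0.39 in siNT cells, and the KO and siNT cells under MG132 differed by 0.37 ± 0.39 (adjusted p = 0.764). Without KO library B the HMOX1 call was lost (adjusted p = 0.0552). BLVRB, biliverdin reductase B, was at 149.6 and 149 in DMSO and 339 and 380 in KO, the smallest rise among the genes called higher (1.26 ± 0.26, adjusted p = 0.0344). OSGIN1, an oxidative stress-induced growth inhibitor, was at 10.3 and 11.9 in DMSO and 46.9 and 42.3 in KO (1.92 ± 0.35, adjusted p = 0.0155). The BLVRB and OSGIN1 calls were each lost when any 1 of the 4 compared libraries was left out (adjusted p from 0.196 to 0.297 and from 0.108 to 0.182).

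These were the 3 genes called among 19 tested NRF2 targets and haem and iron genes, all higher, beside 0.397% of all tested genes. The list median was 0.37. GCLM, the modifier subunit of glutathione synthesis, missed the threshold with 67.3 and 63.2 in DMSO against 208 and 178 in KO (1.55 ± 0.34, adjusted p = 0.0556), and NQO1, a quinone reductase, had a difference of 0.82 ± 0.26 (adjusted p = 0.187). GCLM and NQO1 are named after their values were seen. The metallothioneins MT2A (-0.89 ± 0.24, adjusted p = 0.122) and MT1X (-1.30 ± 0.43, adjusted p = 0.211) were the 2 tested members of their family. Neither was called by limma, and both had an unadjusted p under 0.05 toward lower.

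**Figure D3:**
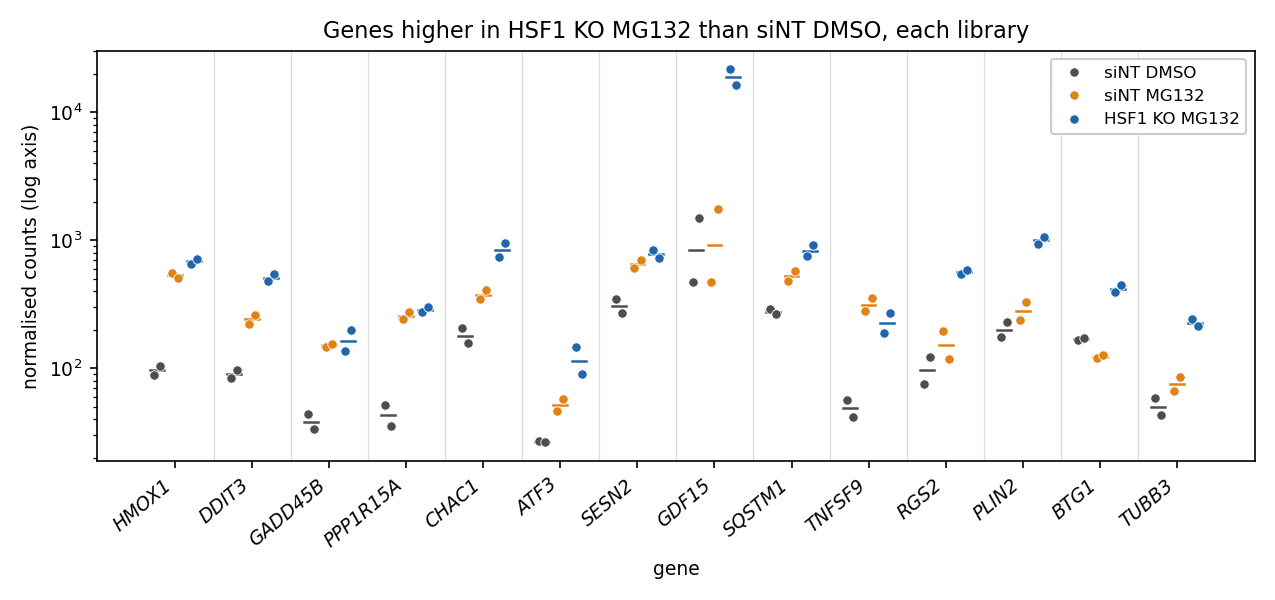
Normalised counts (log axis) of 14 genes called higher in HSF1 KO MG132 than in siNT DMSO, in each library of siNT DMSO (grey), siNT MG132 (orange) and HSF1 KO MG132 (blue); points are libraries and bars their geometric means. For HMOX1, GADD45B and PPP1R15A the 2 MG132 groups lie close together, while for GDF15, PLIN2 and RGS2 siNT MG132 lies near DMSO and the KO libraries stand above both.

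GADD45B (chromosome 19, 2476127-2478257), a stress sensor that activates p38 and JNK kinase signalling, was at 43.6 and 33.5 in DMSO, 146 and 156 in siNT MG132 and 135 and 199 in KO MG132. The MG132 groups overlapped each other and lay above DMSO. The log2 fold change was 2.07 ± 0.30 in KO (adjusted p = 0.00366) and 1.95 ± 0.30 in siNT cells, and KO and siNT cells under MG132 differed by 0.12 ± 0.30 (adjusted p = 0.921). The GADD45B call against DMSO was lost without siNT DMSO library 2 (adjusted p = 0.0863) or KO library B (adjusted p = 0.0932). BTG1, an antiproliferative gene, followed another order, with 166 and 174 in DMSO, 120 and 128 in siNT MG132 and 393 and 446 in KO. Its KO libraries were the highest and its siNT MG132 libraries the lowest, and the log2 fold change against DMSO was 1.29 ± 0.24 (adjusted p = 0.0168), lost when any 1 of the 4 compared libraries was left out (adjusted p from 0.134 to 0.224). These were the 2 called members of 14 tested GADD45 genes and CDK inhibitors, both higher, beside 0.397% of all tested genes. The list median was 0.55.

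Of 17 tested immediate-early and AP-1 genes, 2 were called higher, ATF3 (above) and CTGF, beside 0.397% of all tested genes. None was called lower, and the median was -0.15. CTGF (now CCN2), a matricellular protein gene, was at 6.83 and 35.03 in DMSO and 95.8 and 188 in KO (3.01 ± 0.63, adjusted p = 0.0399). Its DMSO libraries differed several-fold from each other, and the call was lost without siNT DMSO library 1, either siNT MG132 library, or either KO library (adjusted p from 0.0674 to 0.394). With every library scaled to an equal total, 1 gene of this list was called higher and 1 lower, and with quantile normalisation 2 higher and 2 lower. Among 12 tested MAP kinase phosphatase and feedback genes limma called none against DMSO (3 had an unadjusted p under 0.05, DUSP5 higher and DUSP4 and DUSP6 lower), with DUSP5 at 61.3 and 60.4 in DMSO and 100.3 and 263 in KO (1.40 ± 0.41, adjusted p = 0.148).

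Among genes of ubiquitin handling and autophagy, SQSTM1 and ZFAND2A were higher. SQSTM1 (p62), the receptor that carries ubiquitinated cargo to autophagosomes, was at 289.9 and 264 in DMSO, 482 and 575 in siNT MG132 and 751 and 912 in KO. Its groups did not overlap, and its log2 fold change against DMSO was 1.58 ± 0.23 (adjusted p = 0.00363). The SQSTM1 call was lost without siNT DMSO library 2 (adjusted p = 0.0867) or KO library B (adjusted p = 0.0885). ZFAND2A (AIRAP), an arsenite-inducible factor that binds the proteasome, was at 56.8 and 45.8 in DMSO, 491 and 398 in siNT MG132 and 143 and 160 in KO. The KO libraries of ZFAND2A lay between the control groups, with a log2 fold change of 1.55 ± 0.33 against DMSO (adjusted p = 0.0491) and -1.54 ± 0.33 against siNT MG132 (adjusted p = 0.0452). The call against DMSO stood barely inside the threshold and was lost in 12 of 20 alternatives, among them leaving out any 1 of the 4 compared libraries (adjusted p from 0.197 to 0.350).

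Both genes belong to 21 tested ubiquitin and autophagy genes. These 2 were called higher, beside 0.397% of all tested genes, none was lower and the median was 0.33. With equal totals or median-ratio scaling 1 remained called higher. Of 34 proteasome subunit genes limma called none, although 8 had an unadjusted p under 0.05 toward higher and none toward lower. Among all 9064 tested genes, 601 had such a p toward higher. Both KO libraries lay above both DMSO libraries in 22 of the 34, beside 25.1% of all tested genes, and the median was 0.37. ADRM1, a ubiquitin receptor of the proteasome, was at 299.5 and 301 in DMSO and 549 and 548 in KO (0.87 ± 0.25, adjusted p = 0.148), and PSMD4, another ubiquitin receptor, at 484 and 470.2 against 821 and 793 (0.76 ± 0.25, adjusted p = 0.198). The medians of the proteasome list stayed between 0.25 and 0.37 under the 4 scalings, of which equal totals also moved the median of all tested genes to -0.11.

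**Figure D4:**
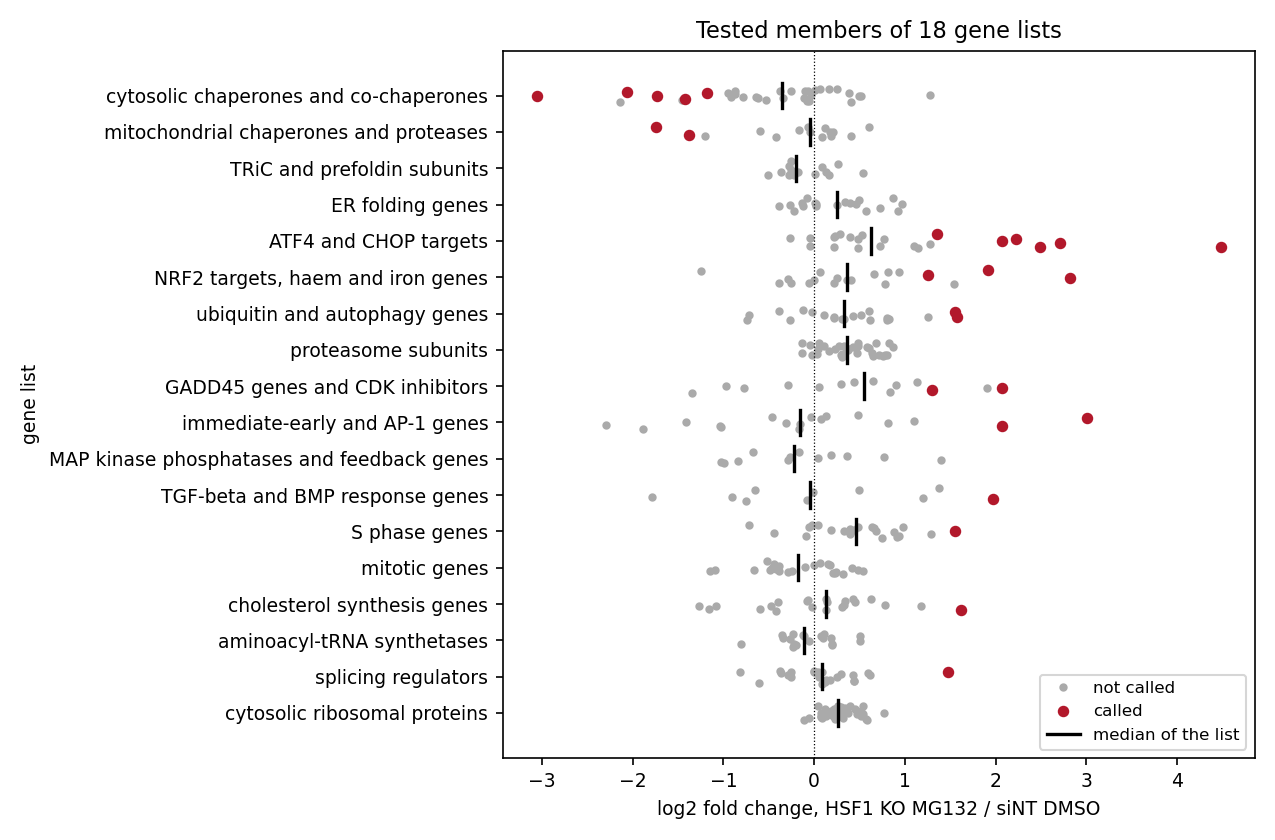
Log2 fold change of HSF1 KO MG132 over siNT DMSO (x axis) for the tested members of 18 gene lists; grey points were not called, red points were called, black bars are list medians and the dotted line is the median of all tested genes. The called cytosolic chaperones lie on the left (down to -3.05) and the 6 called ATF4 and CHOP targets on the right (up to 4.48).

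Several genes that were higher in KO MG132 belong to none of the stress lists above. RGS2, a regulator of G protein signalling, was at 75.2 and 123 in DMSO, 196 and 119 in siNT MG132 and 548 and 591 in KO. PLIN2, a lipid droplet coat protein gene, was at 175 and 229, 240.0 and 330.1, and 941 and 1058 in the same order. In both genes the KO libraries stood above all control libraries, by 2.55 ± 0.32 (adjusted p = 0.00154) for RGS2 and 2.31 ± 0.30 (adjusted p = 0.00208) for PLIN2 against DMSO. TUBB3, the beta-III tubulin gene, was at 58.5 and 42.8 in DMSO, 66.0 and 86.0 in siNT MG132 and 242 and 215 in KO (2.16 ± 0.28, adjusted p = 0.00210). TNFSF9, the ligand of the receptor 4-1BB, was at 56.8 and 41.4 in DMSO, 279 and 352 in siNT MG132 and 189.6 and 270.2 in KO (2.20 ± 0.29, adjusted p = 0.00210), and its KO libraries lay between the control groups. The TNFSF9 call was lost without KO library B (adjusted p = 0.0545).

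Single members of other lists were also higher, beside 0.397% of all tested genes called higher. PMEPA1, a feedback inhibitor of TGF-beta signalling, was at 53.3 and 46.5 in DMSO and at 189.7 and 207 in KO (1.97 ± 0.34, adjusted p = 0.0134) and was the 1 gene called of 10 TGF-beta and BMP response genes. CDT1, a replication licensing factor, was at 77.8 and 73.3 in DMSO and at 274 and 184 in KO (1.56 ± 0.27, adjusted p = 0.0150), the 1 gene called of 22 S phase genes, whose median was 0.46. HMGCS1, the synthase of HMG-CoA, was at 528 and 472 in DMSO and at 1446 and 1629.5 in KO (1.62 ± 0.27, adjusted p = 0.0107), the 1 gene called of 22 cholesterol synthesis genes (median 0.13). TRA2B, a splicing activator, was at 141 and 133 in DMSO and at 344 and 426 in KO (1.48 ± 0.28, adjusted p = 0.0235), the 1 gene called of 25 splicing regulators (0 with equal totals). Each of these calls was lost when at least 3 of the 4 compared libraries were left out in turn (adjusted p from 0.104 to 0.151 for PMEPA1, 0.147 to 0.223 for CDT1, 0.0877 to 0.146 for HMGCS1 and 0.134 to 0.269 for TRA2B).

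CTAG2, a cancer-testis antigen gene with near-identical copies whose reads may be split, was at 11.2 and 11.9 in DMSO, 6.22 and 16.0 in siNT MG132, 79.3 in KO library A and 1003 in KO library B. The KO libraries differed from each other more than KO library A differed from DMSO. The log2 fold change of 4.503 ± 0.85 (adjusted p = 0.0222) fell to 2.68 without KO library B, where it was no longer called (adjusted p = 0.217). The call was also lost without siNT DMSO library 1 (0.168) or 2 (0.126).

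Outside the chaperones, RAB31 and FGFR1 were among the genes called lower with a mean of at least 50 normalised counts. RAB31, a small GTPase of vesicle traffic, was at 301 and 150 in DMSO, 290.3 and 169 in siNT MG132 and 7.08 and 6.23 in KO MG132. FGFR1, a fibroblast growth factor receptor, was at 129 and 134, 136 and 139, and 16.1 and 16.6 in the same order. In both genes the control groups overlapped or nearly met under DMSO and MG132, and the KO libraries lay far below. The log2 fold changes against DMSO were -4.80 ± 0.40 (adjusted p = 0.000195) and -2.93 ± 0.29 (adjusted p = 0.000463), and siNT MG132 differed from DMSO by 0.06 ± 0.40 and 0.07 ± 0.29. Both calls held in every alternative run for them, 18 for RAB31 and 20 for FGFR1. RAB31 was under 10 in both KO libraries and passed the filter only through its DMSO values. It was therefore not tested when either siNT DMSO library was left out, and the dependence of its call on them is not known.

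COL13A1, a membrane collagen gene, was at 100.3 and 109 in DMSO, 81.3 and 86.2 in siNT MG132 and 8.89 and 20.7 in KO (-2.85 ± 0.38, adjusted p = 0.00210). IL13RA2, a decoy receptor of interleukin 13, was at 114 and 170 in DMSO, 142 and 184 in siNT MG132 and 33.3 and 11.4 in KO (-2.76 ± 0.43, adjusted p = 0.00639). FABP4, a fatty acid binding protein gene, was at 274 and 155 in DMSO, 231 and 141 in siNT MG132 and 26.9 and 44.4 in KO (-2.54 ± 0.36, adjusted p = 0.00342). As with RAB31, the KO libraries lay under all 4 control libraries in each of these genes. The IL13RA2 call was lost without siNT DMSO library 2 (0.101) or KO library B (0.0885), and the FABP4 call without siNT DMSO library 1 (0.0827) or KO library A (0.0651), as adjusted p.

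HMGA2, an architectural chromatin protein gene, and IRF2BPL, a transcriptional regulator, had both siNT MG132 libraries below both DMSO libraries, a difference that did not pass the test in either gene. HMGA2 was at 109 and 80.0 in DMSO, 68.0 and 38.7 in siNT MG132 and 14.3 and 26.9 in KO (-2.19 ± 0.39, adjusted p = 0.0151), and siNT MG132 against DMSO gave -0.85 ± 0.39 (adjusted p = 0.876). IRF2BPL was at 268 and 338 in DMSO, 70.1 and 127 in siNT MG132 and 73.0 and 53.7 in KO (-2.25 ± 0.34, adjusted p = 0.00550). For IRF2BPL the 2 MG132 groups overlapped, and siNT MG132 against DMSO gave -1.67 ± 0.34 (adjusted p = 0.0984). The HMGA2 call was lost without siNT DMSO library 1 (0.226), siNT DMSO library 2 (0.0867) or KO library A (0.209), and the IRF2BPL call without siNT DMSO library 2 (0.0968) or KO library B (0.1104), as adjusted p. ANKRD37, an ankyrin repeat gene induced by hypoxia, had 40.2 and 43.8 in DMSO, 19.6 and 16.0 in siNT MG132 and 14.3 and 9.33 in KO (-1.77 ± 0.36, adjusted p = 0.0362) and was the 1 gene called of 23 hypoxia and glycolysis genes (2, with NDRG1, were called lower with equal totals or quantile normalisation). It was lost when any 1 of the 4 compared libraries was left out (adjusted p from 0.0847 to 0.306) and in the fit without both siJMJD6 libraries (0.0550).

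TERC, the RNA component of telomerase, was at 87.7 and 112 in DMSO and at 36.0 and 9.33 in KO (-2.36 ± 0.48, adjusted p = 0.0344), and MYH15, a myosin heavy chain gene, at 105 and 66.8 against 8.89 and 26.8 (-2.35 ± 0.45, adjusted p = 0.0230). The KO libraries of each gene differed from each other by more than 2-fold, and the TERC call was lost without siNT DMSO library 1 (0.172) or 2 (0.268), siNT MG132 library 1 (0.0514) or 2 (0.0524), or KO library B (0.265). The MYH15 call was lost without siNT DMSO library 1 (0.287) or 2 (0.0874) or KO library A (0.223). SNAR-F, a small noncoding RNA gene of a multicopy family, was at 41.0 and 201 in DMSO, 18.6 and 213 in siNT MG132 and 4.38 and 3.14 in KO. SNAR-F was under 10 in both KO libraries, so it passed the filter only through its DMSO values. It was not tested when either DMSO library was left out. Its control libraries 1 and 2 differed several-fold in both groups, reads may be split among its copies, and its call (-4.29 ± 0.88, adjusted p = 0.0353) was lost without KO library A (0.216) or B (0.275).

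**Figure D5:**
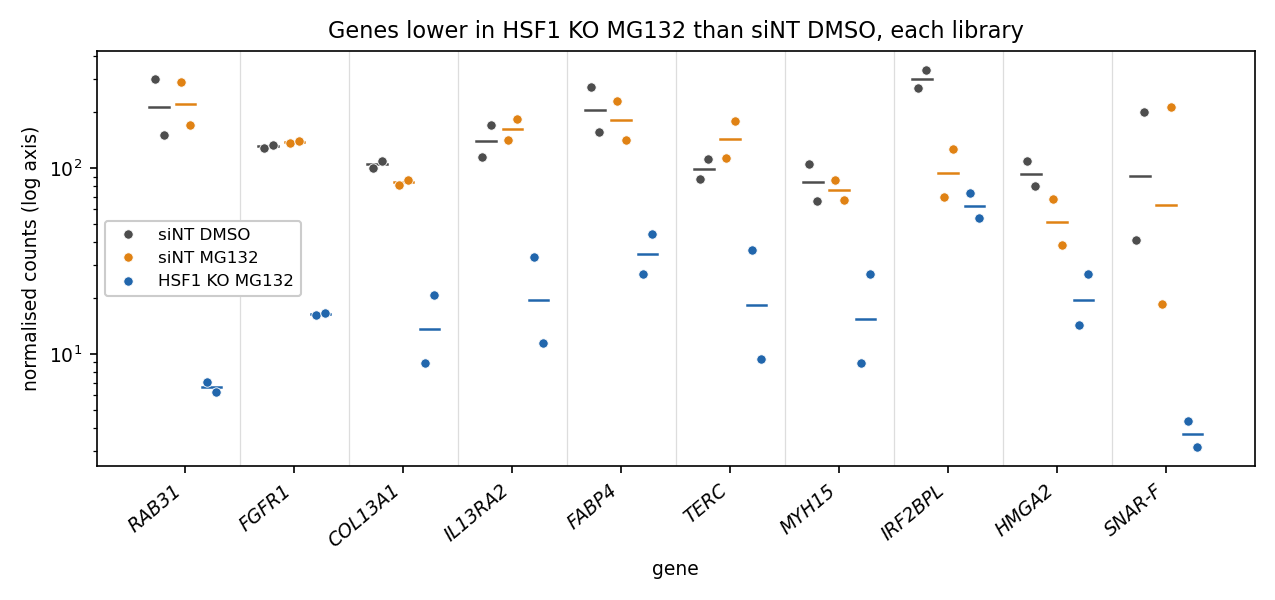
Normalised counts (log axis) of 10 genes called lower in HSF1 KO MG132 than in siNT DMSO outside the chaperones, in each library of siNT DMSO (grey), siNT MG132 (orange) and HSF1 KO MG132 (blue); points are libraries and bars their geometric means. The KO libraries lie below both DMSO libraries in every gene shown, and for IRF2BPL they overlap siNT MG132.

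Among the 51 genes called lower, 12 had a mean under 3 normalised counts in the KO libraries: ALK, BTBD11, CTHRC1, LCP1, LINC00461, MAGEA1, MYH10, RNF182, RNF43, RRAGD, SCARNA18 and ZDHHC4. LCP1, an actin-bundling protein gene, was at 18.3 and 97.8 in DMSO and listed at 0 and 0.0356 in KO libraries A and B. ZDHHC4, a palmitoyltransferase gene, was at 45.8 and 28.2 in DMSO and at 0.783 and 0.0333 in KO. ALK, a receptor tyrosine kinase gene, was at 21.2 and 16.0 in DMSO and listed at 0 and 0.0281 in KO. Because KO library A holds 1914 genes listed at 0 and KO library B holds none, with values down to 0.00137 in their place, such entries are read as at or near 0 and no fold is given. MAGEA1 belongs to a family of similar genes, so its reads may be split. These genes entered the test through their DMSO values: of 217 tested genes under 10 in both KO libraries, 19 were called lower, and of 149 under 10 in both DMSO libraries, none was called higher. RAB31, SNAR-F and CLU, described in other paragraphs, are among the 19. LCP1, ZDHHC4 and ALK are named after their values were seen.

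KO libraries A and B were closer to each other than the DMSO or the siNT MG132 pair. Of 4509 genes with a mean of at least 50 in the pair, 68 (1.51%) differed more than 2-fold, with a median absolute log2 difference of 0.234. The same counts were 132 of 4561 (2.89%, median 0.270) for DMSO libraries 1 and 2 and 194 of 4513 (4.30%, median 0.303) for siNT MG132. The genes higher in B than in A were led by CTAG2 (above), DNAH5, MMP13 and SPHK1, and the genes higher in A by PTPRU, S100A9, FLOT2 and TNFRSF18. DNAH5, an axonemal dynein gene, was at 30.6 in A and 263 in B, and it also differed between library 1 and 2 in DMSO (46.3 and 376) and in siNT MG132 (43.3 and 335). PTPRU, a receptor tyrosine phosphatase gene, was at 101 in A and 12.4 in B, against 232 and 130 in DMSO (-2.24 ± 0.66, adjusted p = 0.151), and without KO library A it was called lower (-3.70, adjusted p = 0.00579). TNFRSF18, a TNF receptor gene, was at 87.4 in A and 26.8 in B, against 2.47 and 1.79 in DMSO (3.99 ± 0.90, adjusted p = 0.0584). It passed the threshold without siNT MG132 library 1 (0.0428), siJMJD6 library 1 (0.029) or siJMJD6 library 2 (0.0333). S100A9, a calcium-binding protein gene, was at 303 in A and 80.5 in B, against 14.7 and 89.8 in DMSO.

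Mitotic, ribosomal and several other lists held no call. Of 24 mitotic genes limma called none, 2 had an unadjusted p under 0.05 toward lower and none toward higher, and the median was -0.18. Of 40 cytosolic ribosomal protein genes limma called none, and 4 had an unadjusted p under 0.05 toward higher, with a median of 0.26. Among all 9064 tested genes, 601 had such a p toward higher. Both KO libraries lay above both DMSO libraries in 23 of the 40 ribosomal protein genes, beside 25.1% of all tested genes. RPLP0, a ribosomal stalk protein gene, was at 5603 and 5944 in DMSO and at 10682 and 9099.5 in KO (0.77 ± 0.27, adjusted p = 0.231). The ribosomal median stayed positive under all 4 scalings but was 0.06 with quantile normalisation. The lists of NF-kB cytokines (6 tested), interferon-response genes (9), cell adhesion and matrix genes (20), keratins and epithelial markers (9) mesenchymal markers (9) and blood and immune markers (1) likewise held no gene called by limma, and 1, 1, 6, 2, 0 and 0 of them had an unadjusted p under 0.05.

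A separate heat shock experiment on siNT PC3M cells (42 °C for 1 h, then 2 h of recovery, 3 libraries a group) shares no library with this comparison. There 2.86% of 9831 tested genes were higher and 1.23% lower than in unstressed cells. The 121 genes lower there became 65 without siNT basal library 1, 73 without basal library 2, 69 without siNT heat shock library 1 and 76 without heat shock library 2. Of the 36 genes higher in KO MG132, 8 (22.2%) were also higher after heat shock, which is 3.15% of the 254 genes higher after heat shock and tested in both: ATP1B1, BTG1, CHAC1, DDIT3, SESN2, TNFSF9, ZFAND2A and ZNF430. None was lower. Of 50 genes lower in KO MG132 and tested in both, 9 (18%, or 3.54% of the 254) were higher after heat shock: CLU, DPYSL2, FGFR1, HSPA1A, HSPA1B, HSPB1, HSPH1, RNF43 and SNAR-F. IRF2BPL was the 1 gene lower in both (2.0% of the 50, and 0.917% of 109 genes lower after heat shock). HMOX1, GADD45B and GDF15 were near their unstressed level after heat shock, with log2 fold changes of 0.09, -0.11 and 0.04, while DDIT3 was higher by 0.90 (adjusted p = 2.83e-06) and HSPA1A by 1.495 (adjusted p = 5.42e-16).

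TBX3 and TRIM26 are a pair of genes that responded strongly to heat and to MG132 in control cells. Their log2 fold changes after heat shock were 3.17 and 3.03. In KO MG132 their levels were near those of siNT DMSO cells. Without KO cells under DMSO, the response of KO cells to the drug is not known. TBX3, a T-box transcription factor gene, was at 34.0 and 36.4 in DMSO, 633 and 343 in siNT MG132 and 49.5 and 47.5 in KO, and TRIM26, a ubiquitin ligase gene, at 34.0 and 42.2, 189 and 346, and 42.3 and 46.4. The KO libraries lay far under siNT MG132 in both (-3.24 ± 0.37, adjusted p = 0.000476, and -2.50 ± 0.32, adjusted p = 0.00104), and neither was called against DMSO (0.45 ± 0.37 and 0.22 ± 0.32). TXNIP, an inhibitor of thioredoxin, went the other way: it was at 297 and 239.6 in DMSO, fell to 45.4 and 31.1 in siNT MG132, and was at 353 and 500.1 in KO, a difference of 3.45 ± 0.30 from siNT MG132 (adjusted p = 5.75e-05). These 3 genes are named after their values were seen.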

How the data were processed

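RNA of PC3M cells was made into libraries with QuantSeq FWD, which counts tags near the 3′ end of transcripts, per the labels' protocols. The deposited values are a signal, the authors' normalised count per gene, in 1 table per experiment. FastQC 0.11.2, STAR 2.6.0, HTSeq and build hg38 are named in the submitters' processing notes. How counts were scaled, with which annotation and with or without strand, was not given in the sources used here. Within a tolerance of 0.1, from 16.5% to 80.5% of the low values in the 4 compared libraries were whole multiples of 1 step. Reads were therefore not recovered, and read depth is unknown.

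Log2 of the value plus 1 was fitted with limma 3.58.1 (R 4.3.3, trended variance), with all 8 libraries of the MG132 table sharing 1 spread per gene. Genes with at least 10 in at least 2 of the 4 compared libraries were tested, and adjusted p under 0.05 (Benjamini-Hochberg, all tested genes) was a call. Fold changes on this scale understate changes of low genes. The heat shock table was fitted separately, with at least 10 in at least 3 of its 9 libraries. Groups came from the labels, and every column was matched to a label. The fit was tested on simulated data.

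Members and gene lists were chosen with earlier results of these data known. The text takes its genes, not all of which are printed, from HSF1, JMJD6, the 3 markers, a chaperone panel, the 12 largest rises and falls with a mean of at least 50 (of the 4 libraries) among called genes without overlap, up to 4 called members of each list by p (or 2 where none was called), and the 4 genes with the largest difference between KO libraries A and B in each direction. Other genes were chosen after their values were seen. Some marker genes are not reported here. In the lists, 21 symbols were matched through older names. Gene positions and promoters are from RefSeq (GRCh38.p14). Alternatives were other pseudocounts, filters, scalings and variance settings, a replicate block and leaving out each library. Figures were drawn with matplotlib 3.10.9.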

Additional observations from a re-analysis of the deposited data

Results flagged for a closer look

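For 28 of the genes chosen by the naming rule, the level under MG132 differed between HSF1 KO and siNT cells by a limma test of that difference. It is also the difference between the effects of KO MG132 and of siNT MG132 over the shared DMSO libraries. Among all 9064 tested genes, 24 (0.265%) were higher and 84 (0.927%) lower in KO by this test. Many of the 28 were chosen because they were called against DMSO with the same KO libraries, so their number is no separate result. The log2 differences (HSF1 KO minus siNT) were lower for the chaperone genes HSPA1A (-5.60), HSPA1B (-5.12), HSPH1 (-4.46), BAG3 (-3.78), DNAJB1 (-2.73), HSPB1 (-2.64), HSP90AA1 (-2.43), HSPE1 (-1.88), HSPD1 (-1.79) and ST13 (-1.35). They were also lower for HSF1 itself (-2.99) and for ZFAND2A (-1.54). Outside the chaperones the differences were -4.86 for RAB31, -3.0 for FGFR1, -2.98 for IL13RA2, -2.88 for TERC, -2.53 for COL13A1, -2.35 for FABP4 and -2.22 for MYH15. In the other direction they were 4.68 for CTAG2, 4.35 for GDF15, 2.06 for PMEPA1, 1.89 for RGS2, 1.86 for DUSP5, 1.82 for PLIN2, 1.75 for BTG1, 1.58 for TUBB3 and 1.17 for CHAC1. By limma adjusted p, CHAC1 (0.0499), DUSP5 (0.0471) and ZFAND2A (0.0452) stood barely inside the threshold. CTAG2 was at 79.3 in KO library A and 1003 in KO library B. The differences of single genes from siNT MG132 were not run under the alternatives. Genes named only after their values were seen, such as TXNIP, TBX3 and TRIM26, are not counted here, although some of them passed the same test. Groups of 2 libraries were too small to look for single libraries far from the others.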

How the results depend on the processing

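In HSF1 KO MG132 against siNT DMSO, no called gene among those chosen by the naming rule changed direction in any alternative run. This covers calls with the reported settings or with an alternative. Genes named after their values were seen, such as SESN2, CLU and TXNIP, were not run under the alternatives. The counts of called genes depended on the settings, and except where noted the cause was not tested. HSF1 KO MG132 against siNT DMSO (87 genes, 36 higher and 51 lower) gave 6 (3 and 3) with no filter on low values, where 14085 genes were tested, and DDIT3, PPP1R15A, CHAC1, RAB31 and FGFR1 were those among the genes chosen by the naming rule that were still called. It gave 28 lower with a filter at 50, 213 (102 and 111) in a fit of only the 4 libraries, 39 (14 and 25) with no variance trend, and 143 (60 and 83) without both siJMJD6 libraries. Leaving out 1 library gave 19 to 140 (9 to 57 higher, 7 to 83 lower). Without a compared library the filter was applied again, and the tested genes fell from 9064 to between 8686 and 8791. Equal totals moved the higher share of calls from 41.4% to 29.7% (27 higher, 64 lower) and the median of all genes to -0.11.

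HSF1 KO MG132 against siNT MG132 (108) gave 29 with no filter, 56 with a filter at 50, 265 with only the 4 libraries, 49 with no trend, 178 without siJMJD6 libraries and 40 to 171 without 1 library. The count for siNT MG132 against siNT DMSO (25) was 6 with no filter, 10 with no trend and 10 to 31 without 1 library. For heat shock (402) the total ran from 271 to 428, and the lower calls (121) from 65 to 150, both when 1 library was left out.

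With the replicate block (numbers 1 and 2 as a term, KO libraries given none), the 3 counts under MG132 were 265 (115 higher and 150 lower, all 87 among them), 288 and 46. The numbers were not taken as pairs: differences between library 1 and 2 correlated at 0.368 between DMSO and siNT MG132, 0.317 between DMSO and siJMJD6 and 0.0308 between siNT MG132 and siJMJD6.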

Other observations

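Several other genes were lower in HSF1 KO MG132 than in siNT DMSO, and they are named here after their values were seen. NEAT1, the noncoding RNA of paraspeckles, was at 810.5 and 822 normalised counts in DMSO, 1418 and 1549 in siNT MG132 and 388 and 299 in KO MG132, with the KO libraries under all 4 control libraries (log2 fold change -1.26 ± 0.22 SE against DMSO, limma adjusted p = 0.0150). CLU, the secreted chaperone clusterin, was at 37.5 and 63.4 in DMSO and at 4.38 and 4.17 in KO (-3.24 ± 0.43, adjusted p = 0.00233). Like RAB31, CLU was under 10 in both KO libraries and passed the filter only through its DMSO values. ZNF503, a zinc finger repressor gene, was at 950.2 and 553 in DMSO, 420.2 and 395 in siNT MG132 and 218 and 154 in KO (-1.98, adjusted p = 0.00363). FZD8, a Wnt receptor gene, was at 74.6 and 106 in DMSO, 17.6 and 16.0 in siNT MG132 and 21.6 and 19.6 in KO, so that both MG132 groups lay under DMSO and overlapped neither of its libraries.

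GDF15, LCP1, DNAH5 and SNAR-F differed several-fold between library 1 and library 2 in both siNT groups and in the same direction. For LCP1 the values were 18.3 and 97.8 in DMSO and 15.5 and 95.7 in siNT MG132. For DNAH5 they were 46.3 and 376, and 43.3 and 335. Library 2 was the higher in each case.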
